A study of Mus musculus with 4 samples.

Results

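The C/EBP transcription factors analysed here were Cebpa, Cebpb, Cebpd and Cebpg, 4 of the 32285 genes in the count matrices. They were selected by name with earlier results of these data known, so their levels across cell classes are given as a description and were not tested. The ovaries came from 8-week-old female mice of a shared litter. Fosl2F/F mice carried floxed alleles of Fosl2, a subunit of the AP-1 transcription factor, with no Cre, and their samples are labelled WT. Fosl2cKO mice carried the same floxed alleles together with Cyp19a1-Cre, in which the aromatase promoter drives Cre in granulosa cells (GCs). Cells of other lineages in these ovaries were not designed to lose Fosl2. Each group had 2 libraries of dissociated whole ovary made with a 3′ droplet kit that counts unique molecular identifiers (UMIs). The mice were staged by vaginal smear and showed estrus-phase features, per the study's supplement. The group size was n = 2, the same as the number of libraries, and whether a library held more than 1 mouse was not given in the sources used here.

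C/EBP proteins are basic leucine zipper factors that bind DNA as dimers with each other or with related zipper proteins. Cebpa is known from the differentiation of adipocytes, hepatocytes and myeloid cells. Cebpb is induced in GCs by the luteinizing hormone surge and is needed for ovulation and luteinization in the mouse. Cebpd is an acute-phase factor that responds to IL-6 family cytokines and glucocorticoids. Cebpg lacks the classical activation domain, dimerizes with other family members and pairs with Atf4 in the response to amino-acid and oxidative stress.

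A total of 41538 cells passed the filters and the removal of predicted doublets, 8150 and 19575 from Fosl2F/F libraries 1 and 2 and 6760 and 7053 from Fosl2cKO libraries 1 and 2. Fosl2F/F library 2 stood apart, with a median of 3655 UMIs per cell against 11177 to 12465 in the other 3 libraries. The share of cells removed as predicted doublets was fixed in advance by the cell number, at 0.8% per 1000 cells. It was 19.4% in this library against 5.74% to 7.01%, and so is no measure of its doublets. Of the kept cells, 149 barcodes occurred in more than 1 library. The targeted gene Fosl2 was at 161 and 166 CPM (UMIs of the gene scaled by all UMIs of the class) in GC-like cells of the Fosl2F/F libraries and at 167 and 114 in those labelled Fosl2cKO (log2 fold change -0.25, SE 0.20, adjusted p = 1.0 by edgeR's quasi-likelihood test). Fosl2cKO library 1 was thus not below the controls in GC-like cells as a whole. It was below both controls in GC mitotic-like cells (123 and 150 CPM in Fosl2F/F, 119 and 90.5 in Fosl2cKO) and GC mitotic-antral-like cells (107 and 114 against 92.8 and 82.8), and above both in GC atretic-like and mural-like cells, with no call in any of these. The groups are named below by their labels only. The floxed segment spans exons 2 to 4, and the study examined Fosl2 protein in GCs by immunoblot. Whether the 3′ tag counted here lies inside that segment was not tested. Cells were clustered without the C/EBP genes and named from fixed marker lists, which gave 12 classes with at least 20 cells in every library and 5 named GC subclasses. A sum over a class does not tell fewer expressing cells apart from fewer transcripts per cell.

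The 4 genes lie at 3 loci of the GRCm38 genome. Cebpa (ENSMUSG00000034957) is on chromosome 7, from 35119293 to 35121928 on the plus strand, and Cebpg (ENSMUSG00000056216) is on the minus strand of the same chromosome, from 35046422 to 35056573, with 62719 bases between them. Cebpb (ENSMUSG00000056501) is an intronless gene on chromosome 2, from 167688915 to 167690418, and Cebpd (ENSMUSG00000071637) is on chromosome 16, from 15887286 to 15891031, both on the plus strand. Several genes overlap them. Tmem189 shares 908 bases with Cebpb on the opposite strand, Spidr shares 1808 bases with Cebpd on the opposite strand, and the antisense gene Gm45091 shares 313 bases with Cebpa. Cebpg is overlapped on its own strand by Gm44836 (1140 bases) and Gm45094 (617 bases) and on the opposite strand by Gm45095 (353 bases). Whether counting used strand is not stated, so reads from these genes may not be separable, and strand would not separate the same-strand overlaps of Cebpg. Across the 48 values of 12 classes in 4 libraries, Pearson's r between the 2 genes of a pair was -0.05 for Cebpb and Tmem189, -0.03 for Cebpd and Spidr and 0.25 for Cebpa and Gm45091, and these values share libraries and classes. Gm45091 was near 0, with its highest class mean at 0.34 CPM in macrophage-like cells.

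The promoters of Cebpa, Cebpb and Cebpg, the 3 members held in the RefSeq promoter table used here, are shown as the sequence context of genes whose class patterns are described below. Each sequence is the 250 bases before the annotated transcription start (RefSeq, GRCm38.p6), 5′ to 3′ on the gene's strand, and capitals mark the motif letters found. The searched windows added 50 bases after the start and were chr7:35119043-35119342 (plus strand) for Cebpa, chr2:167688665-167688964 (plus strand) for Cebpb and chr7:35056517-35056816 (minus strand) for Cebpg.
Cebpa: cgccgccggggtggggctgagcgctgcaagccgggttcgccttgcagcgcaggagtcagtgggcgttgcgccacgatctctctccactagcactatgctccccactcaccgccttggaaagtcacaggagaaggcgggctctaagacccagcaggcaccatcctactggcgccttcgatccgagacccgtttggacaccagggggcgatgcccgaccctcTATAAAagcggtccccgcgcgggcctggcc
Cebpb: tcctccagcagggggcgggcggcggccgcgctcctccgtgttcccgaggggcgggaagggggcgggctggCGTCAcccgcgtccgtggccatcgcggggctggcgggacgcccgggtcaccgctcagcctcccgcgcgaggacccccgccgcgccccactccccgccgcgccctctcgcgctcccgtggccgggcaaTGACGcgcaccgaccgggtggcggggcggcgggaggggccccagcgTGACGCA
Cebpg: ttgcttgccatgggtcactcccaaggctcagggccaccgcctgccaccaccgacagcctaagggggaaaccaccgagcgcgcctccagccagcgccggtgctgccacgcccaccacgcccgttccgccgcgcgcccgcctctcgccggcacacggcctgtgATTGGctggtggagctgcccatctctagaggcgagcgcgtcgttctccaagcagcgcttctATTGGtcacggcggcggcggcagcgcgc
The Cebpa window held a TATA box (TATAAA) that began 30 bases before the start, and this motif was in 13.6% of 32851 RefSeq windows of the same length. The Cebpb window held the element TGACGCA, which resembles the cyclic AMP response element and was in 2.12% of windows, 7 bases before the start. It also held 2 further copies of the shorter TGACG, which was in 20.8% of windows and is contained in TGACGCA, and a TATAAA 22 bases after the start. The Cebpg window held 2 CCAAT boxes, read as ATTGG on the printed strand, and 37.4% of windows held this motif. No window of the 3 held the AP-1 motif TGANTCA (7.81% of windows), the full element TGACGTCA (1.79%), the palindromic C/EBP motif TTGCGCAA (0.183%) or its looser form TTGCNNAA (10.8%) on either strand. The windows were rich in G and C, at 67.3% for Cebpa, 80.7% for Cebpb and 71.7% for Cebpg against a median of 52.7% over all windows.

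Cebpa was highest in macrophage-like and theca-like cells. All levels below are CPM of a class in a library, in the order Fosl2F/F 1 and 2 and then Fosl2cKO 1 and 2. In macrophage-like cells Cebpa was at 62.3, 30.5, 44.9 and 125, and in theca-like cells it was at 66.8, 35.0, 33.0 and 113. These 2 classes overlapped in level, and the lowest theca-like value lay above the highest dendritic-like value of 25.9. GC-like cells had 16.1, 8.01, 8.43 and 24.3, and stromal-like cells had 5.0, 4.28, 4.76 and 12.1. In each of these 4 classes Fosl2cKO library 2 was highest and the conditions overlapped. The mean over 4 libraries was 1.5 ± 0.52 (SD, n = 4) in endothelial-like and 1.42 ± 1.64 in NK or T-like cells, the lowest of the 12 classes. Theca-like cells came from a pair of clusters, and Cebpa was at 88.8, 59.2, 60.4 and 166 in the cluster led by Cyp17a1, the androgen-synthesis enzyme of theca cells. In the other cluster, led by Abcb1b, Gpx3 and the cholesterol transporter gene Star, Cebpa was at 40.4, 22.7, 26.9 and 61.2, lower than the Cyp17a1 cluster in all 4 libraries.

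Cebpb was spread over macrophage-like, epithelial-like and theca-like cells. Macrophage-like cells had 22.7, 18.1, 22.0 and 37.2, and epithelial-like cells had 12, 21, 29.2 and 20.4. In theca-like cells Cebpb was at 14.0, 10.8, 22.0 and 25.2, with both Fosl2cKO libraries above both Fosl2F/F libraries. Lymphatic endothelial-like cells averaged 17.6 ± 4.30 (SD, n = 4). These top classes overlapped with their neighbours in the order. GC-like cells had 4.84, 3.72, 4.28 and 7.44, and endothelial-like cells were lowest at a mean of 2.65 ± 0.70, below every GC-like value. In 62 granulocyte-like cells, too few in some libraries for a test, Cebpb was at 143, 178, 104 and 126, above every value of the 12 classes, whereas Cebpa had no UMI there in any library. These levels rest on 9, 1, 2 and 3 Cebpb UMIs.

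Cebpd was highest in mesenchymal and lymphatic vascular classes. In stromal-like cells it was at 74.2, 91.8, 464 and 331. Pericyte or smooth muscle-like cells had 75.6, 82.3, 451 and 296, and lymphatic endothelial-like cells had 81.2, 91.8, 375 and 243. These 3 classes overlapped with each other, and within each condition both of their libraries lay above those of every other class tested. The pericyte or smooth muscle-like class did not include a cluster led by the smooth muscle genes Myh11, Tagln and Acta2. That cluster was left unnamed, since its score for the pericyte or smooth muscle list (0.349) was too close to that for the stromal list (0.345). It had less Cebpd than this class in every library and is given at the end. Endothelial-like cells had 27.5, 36.1, 117 and 126, and epithelial-like cells had 18.9, 18.6, 74.9 and 118. Theca-like cells were at 15.0, 21.5, 79.1 and 90.3 and macrophage-like cells at 8.79, 5.6, 29.9 and 59.8. GC-like cells were lowest of the 12 classes by mean, with 3.42, 4.40, 12.5 and 17.1. In all of these classes the lower Fosl2cKO library was above the higher Fosl2F/F library. NK or T-like cells, at 3.02, 13.2, 10.9 and 12.4 from 27 UMIs in all, overlapped between conditions, and Cebpd failed the filter on low counts there. In B lymphocyte-like cells all 6 Cebpd UMIs came from Fosl2cKO library 1.

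Cebpg was the most evenly expressed member. Its class means ran from 16.3 in B lymphocyte-like to 40.4 in macrophage-like cells, and every class overlapped with its neighbours in the order. Macrophage-like cells had 24.9, 41.1, 41.4 and 54.2, endothelial-like cells 23.6, 30.8, 49.7 and 50.9, and lymphatic endothelial-like cells 21.4, 13.1, 65.1 and 58.0. In GC-like cells Cebpg was at 17, 21.7, 33.1 and 37.3, and in stromal-like cells at 10.8, 13.1, 21.5 and 25.2. In each of these 5 classes both Fosl2cKO libraries were above both Fosl2F/F libraries. The 249 oocyte-like cells, too few in some libraries for a test, gave 22.0, 27.3, 47.0 and 66.5. Single Cebpg molecules set the B lymphocyte-like levels, since 1 UMI in Fosl2F/F library 2 gave 33.4 there.

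**Figure D1:**
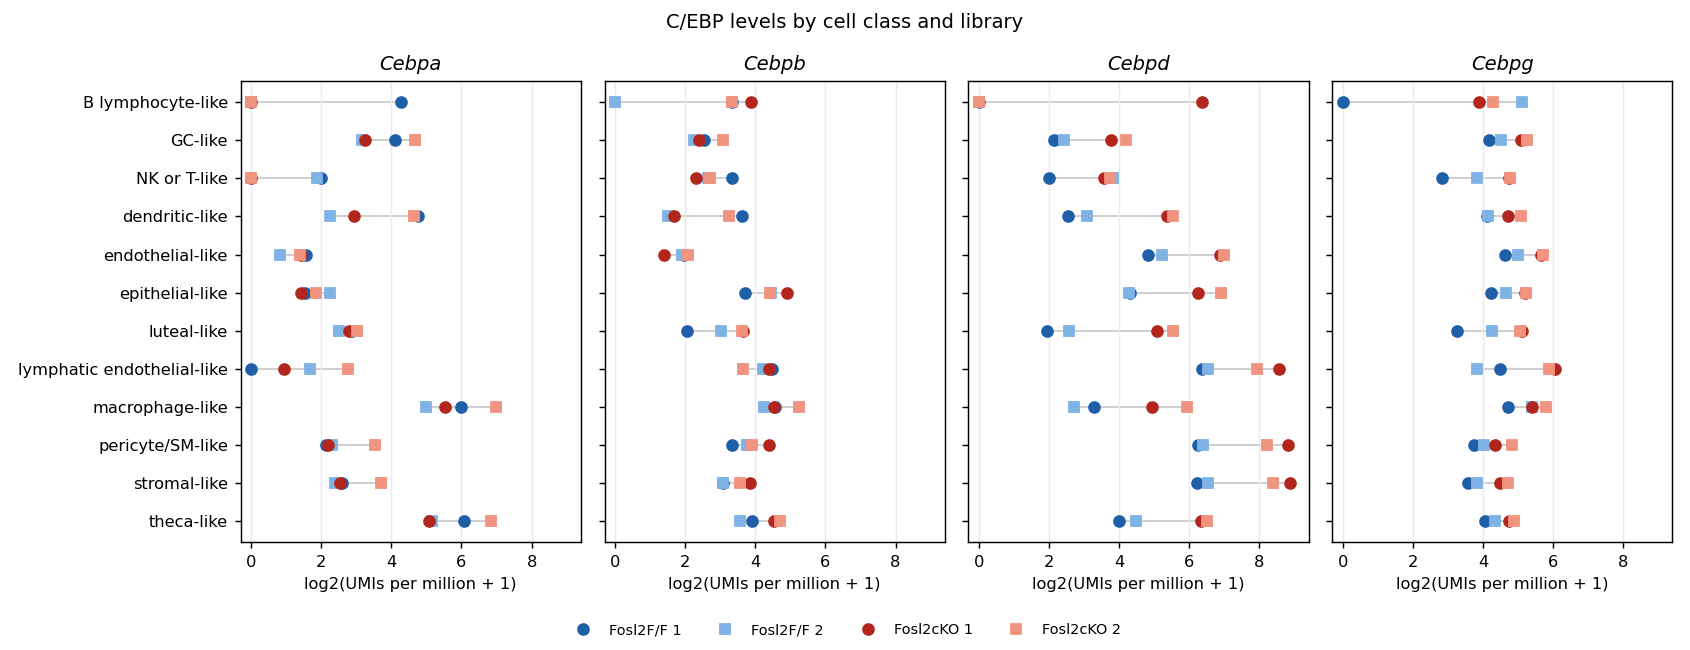
Levels of the 4 genes by cell class, as log2(CPM + 1) on the horizontal axis, with a point for each library and a grey line from the lowest to the highest. Cebpa peaked in macrophage-like and theca-like cells and Cebpd in stromal-like, pericyte or smooth muscle-like and lymphatic endothelial-like cells, where the Fosl2cKO points (red) sat between 243 and 464 CPM and the Fosl2F/F points (blue) between 74.2 and 91.8.

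Within the GC-like cells the members had different orders. The mitotic-antral-like subclass was named from Cox4i2, Ndufa4l2, Slc16a3 and Ldha, and these genes led it. None of them is on the list behind the mitotic-like name, so mitotic-antral-like does not stand for dividing cells here. Cebpa was high in mitotic-antral-like cells (31.0, 14.9, 12.3 and 58.2), mural-like cells (21.3, 15.2, 13.2 and 39.7) and mitotic-like cells (23.3, 9.81, 10.0 and 29.98). Cumulus-like cells had 2.60, 2.91, 2.26 and 5.96 and atretic-like cells 2.97, 3.86, 5.32 and 12.8. Each cumulus-like value lay below every mural-like value. Cebpd had its highest mean in atretic-like cells (6.50, 5.79, 30.7 and 29.9), followed by cumulus-like cells (1.68, 3.97, 14.9 and 19.3). Mural-like cells had Cebpd at 3.55, 5.78, 11.4 and 13.5, and mitotic-like cells at 2.96, 3.69, 5.69 and 11.3. Cumulus-like cells were thus below mural-like cells for Cebpd in both Fosl2F/F libraries and above them in both Fosl2cKO libraries. Cebpg was highest by mean in mitotic-like cells (22.0, 26.7, 38.9 and 44.5) and lowest in atretic-like cells (10.7, 16.1, 28.5 and 29.4). Cebpb stayed between means of 3.97 and 5.98 in the named subclasses, and its subclasses overlapped. Neighbours in the order overlapped for all 4 genes. These orders leave out 3 clusters of GC-like cells that were left unnamed. The largest, of 1547 cells, was led by Amh, Cited1 and Rgs2. Another, of 127 cells, held only 5 from Fosl2cKO library 1. A small one was led by Pcdh9, Sorbs2 and Dync1i1. Pcdh9 was also among the leading genes of a stromal-like cluster and Dync1i1 of a theca-like cluster, so whether these cells are GCs is open. This cluster had Cebpd at 31.6, 15.4, 102 and 149, and its 190 cells included only 15 from Fosl2F/F library 1.

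**Figure D2:**
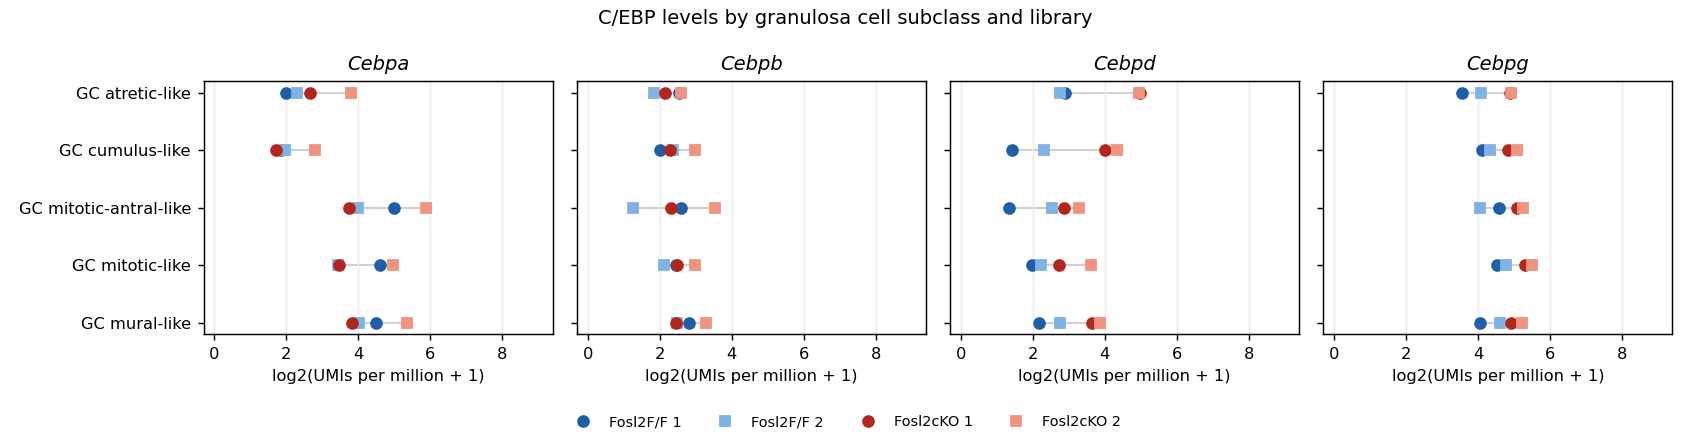
Levels of the 4 genes in the 5 named GC subclasses, as log2(CPM + 1), with a point for each library and a grey line from the lowest to the highest. Cebpa was lowest in cumulus-like and atretic-like cells, and Cebpd was highest in atretic-like cells, where the Fosl2cKO libraries had 30.7 and 29.9 CPM and the Fosl2F/F libraries 6.50 and 5.79.

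The share of cells with a UMI gave a similar order. Every cell was thinned to 2000 UMIs, which left out 20.3% of cells of Fosl2F/F library 2 and 4.23% to 6.17% of the others. Cebpd was found in 12.4% of stromal-like cells of Fosl2F/F library 1 (95% exact binomial interval 10.8% to 14.3%) and in 15.5% (14.3% to 16.7%) of library 2. The shares were 48.0% (45.5% to 50.4%) and 35.5% (33.4% to 37.7%) in the Fosl2cKO libraries. Before thinning these shares were 31.0%, 20.2%, 76.2% and 60.9%, at median depths of 6608, 2518, 8851 and 7579.5 UMIs per cell. In GC-like cells the thinned shares of Cebpd were 0.720%, 0.967%, 2.76% and 3.63%. Cebpa was found in 14.4%, 5.92%, 4.81% and 17.5% of thinned theca-like cells and in 10.8%, 6.70%, 9.66% and 26.8% of macrophage-like cells. Endothelial-like cells, which had little Cebpa, had no thinned cell with a Cebpa UMI in 3 libraries and 0.218% in the fourth, at median depths of 3411.5 to 8029 UMIs before thinning. The intervals cover counting error only.

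**Figure D3:**
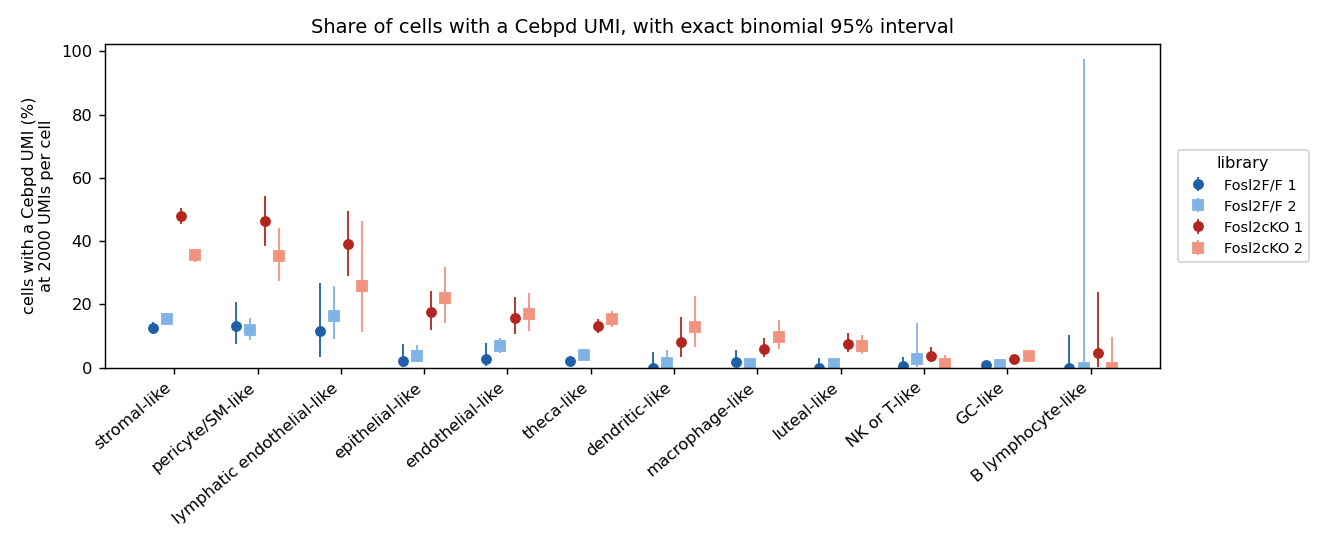
Share of cells with a Cebpd UMI in each class after thinning to 2000 UMIs per cell, with a point for each library and exact binomial 95% intervals as bars. In stromal-like cells the Fosl2cKO libraries had 48.0% and 35.5% and the Fosl2F/F libraries 12.4% and 15.5%, whereas GC-like cells stayed below 4% in all 4 libraries.

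Few thinned cells held UMIs of 2 members. In stromal-like cells of Fosl2cKO library 1, Cebpd and Cebpg were both found in 45 of 1638 cells, or 2.75%, and the product of their separate shares was 2.43%. In theca-like cells of Fosl2cKO library 2, Cebpa and Cebpd were both found in 22 of 896 cells, or 2.46%, against a product of 2.68%. The observed and multiplied shares were close in both cases, as for other pairs with more than a few joint cells. Across the 48 class and library values on the log2 scale, Pearson's r was 0.41 between Cebpa and Cebpb, 0.41 between Cebpb and Cebpd, 0.43 between Cebpd and Cebpg and -0.02 between Cebpa and Cebpd. These values share libraries, depth and classes and are given as a description.

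Genes with the most similar pattern over the 12 classes differed between members. They were ranked by Pearson's r over the same 48 values. For Cebpa they were Hipk2 (r = 0.79), which encodes a nuclear kinase, Slc7a11 (0.70), the cystine transporter gene, Wdfy2 (0.69), Pgd (0.69), which encodes an enzyme of the pentose phosphate pathway, and Pla2g15 (0.68). For Cebpb they were Rnase4 (0.72), Tex264 (0.67), Grina (0.64), Tom1 (0.64) and Ahnak2 (0.62). For Cebpd they were Osmr (0.81), which encodes the oncostatin M receptor, Nhsl2 (0.81), Myadm (0.80), Prkg1 (0.79), the kinase activated by cyclic GMP, and Rras (0.79). For Cebpg they were Ube2q1 (0.79), Vapb (0.74), Tmed7 (0.72), Vps37c (0.72) and Hs6st1 (0.72). The ranking was repeated over 24 values of 6 GC subclusters, the 5 named subclasses and the unnamed cluster of 1547 cells. Cebpa was most like Efna5 (0.90), Lpcat1 (0.88) and Mamld1 (0.88), and Cebpb most like Ube2j2 (0.80), Gatad1 (0.80) and Acbd6 (0.79). Cebpd was there most like Yipf4 (0.93), Rab22a (0.90) and Arl8a (0.89), and Cebpg most like Ppp1cc (0.95), Sap30 (0.94) and Srsf4 (0.93).

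The comparison of Fosl2cKO with Fosl2F/F asked whether the members changed in each class. UMIs were summed per class and library and fitted with edgeR's quasi-likelihood test over all genes of the class. A gene was called at an adjusted p under 0.1 with a log2 fold change over 0.25 in size, and fold changes are Fosl2cKO over Fosl2F/F. Of 54 member and class pairs that passed the filter on low counts in 17 fits, 6 were called. All 6 were Cebpd with higher levels in the libraries labelled Fosl2cKO. Over all genes in these fits, 201 of 190324 tests were called (0.106%). Since the members were chosen with these contrasts known, the counts are a description.

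Cebpd was called in stromal-like cells (log2 fold change 2.20, SE 0.29, edgeR adjusted p = 0.0079), where 0.181% of 15432 genes were called. It was called in epithelial-like cells (2.30, SE 0.34, adjusted p = 0.024) with 0.116% of genes called, and in endothelial-like cells (1.89, SE 0.26, adjusted p = 0.035) with 0.16% of genes called. Mean levels in these 3 classes were 83.0, 18.8 and 31.8 in the Fosl2F/F libraries against 397, 96.2 and 122 in the Fosl2cKO libraries. It was also called in macrophage-like cells (2.57, SE 0.45, adjusted p = 0.047; 0.307% of genes), theca-like cells (2.18, SE 0.27, adjusted p = 0.083; 0.0336%) and GC cumulus-like cells (2.49, SE 0.38, adjusted p = 0.083; 0.0685%). Each group had 2 libraries, and the call in macrophage-like cells was the only one of the 6 kept when any of the 4 libraries was left out (adjusted p at most 0.032). In stromal-like, theca-like and GC cumulus-like cells the call was lost without Fosl2F/F library 1 or 2, with an adjusted p of up to 0.755, 0.877 and 0.866. The theca-like call was also lost with doublets kept (edgeR adjusted p = 0.103). In epithelial-like cells it was lost without Fosl2F/F library 1 (adjusted p = 0.298), and in endothelial-like cells it held only without Fosl2cKO library 1 (adjusted p = 0.047, up to 1.0 without another). In these 6 classes the log2 fold change of Cebpd stayed positive with any library left out, between 1.76 in endothelial-like and 3.24 in GC cumulus-like cells.

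The other 9 Cebpd fits did not pass the rule. In GC-like cells, where Cre was designed to act, the log2 fold change was 1.90 (SE 0.27, adjusted p = 0.34), and 0.00579% of 17266 genes were called. It was 3.12 (SE 0.39, adjusted p = 0.20) in luteal-like cells with 0.0156% of genes called and 1.83 (SE 0.43, adjusted p = 0.12) in lymphatic endothelial-like cells with 0.146% called. Luteal-like cells were made up of different clusters. The one led by Runx2 and Hsd17b7 held 4 cells of Fosl2F/F library 1 and 898 of library 2, and 315 and 274 of the Fosl2cKO libraries. The one led by Akr1c18 and Ptgfr held 117 and 341 cells of the Fosl2F/F libraries against 15 and 30. The part of this mix in the luteal-like fold change was not tested. The fold change was 2.25 (SE 0.33, adjusted p = 0.71) in pericyte or smooth muscle-like cells, where 0% of genes were called, 310 genes had an unadjusted p under 0.05 and DESeq2 called 4. In dendritic-like cells it was 2.70 (SE 0.48, adjusted p = 0.40) with 0.0146% of genes called. The GC subclasses gave 2.20 in atretic-like cells (SE 0.25, adjusted p = 0.21; 0.00774% called), 1.29 in mitotic-antral-like cells (SE 0.56, adjusted p = 0.51; 0.018%), 1.35 in mitotic-like cells (SE 0.39, adjusted p = 0.52; 0.0068%) and 1.40 in mural-like cells (SE 0.35, adjusted p = 0.53; 0.00754%). In all 9 of these fits, as in the 6 called, both Fosl2cKO libraries were above both Fosl2F/F libraries, which made 15 of 15. The GC subclasses are parts of the GC-like cells and all fits share the same 4 libraries, so the fits of a gene are not independent. DESeq2 called Cebpd in 10 of the 15 fits, GC-like cells among them (adjusted p = 8.17e-07). It called 168 of 17266 genes in GC-like cells and 1351 of 190324 gene tests over all fits. With no gene filter, edgeR called 4839 of 346824 gene tests over all fits. Cebpd was then called in 8 of the 9 fits, GC mitotic-antral-like cells being the exception, with an edgeR adjusted p of 3.56e-04 in GC-like cells. In lymphatic endothelial-like cells edgeR also called it with DESeq2 size factors (adjusted p = 0.080), with doublets kept (0.033) and in cells over 2000 UMIs (0.075). Further calls came with a library left out, which leaves 1 library in a group. Each such setting called more genes over all fits than the main one, so only fold changes are given. In lymphatic endothelial-like cells the log2 fold change was 1.78 without Fosl2F/F library 1 and 1.90 without Fosl2F/F library 2. In dendritic-like cells it was 2.48 without Fosl2F/F library 1, 2.98 without Fosl2F/F library 2 and 2.81 without Fosl2cKO library 1. Without Fosl2cKO library 1 it was also 2.13 in GC-like, 3.31 in luteal-like and 1.78 in GC mitotic-like cells. Without Fosl2cKO library 2 it was 2.56 in pericyte or smooth muscle-like cells. A gene with both Fosl2cKO libraries above in all 10 classes where Cebpd was tested was 1 of 44 such among 4926 genes, or 0.893%. By fit, 23.9% to 47.6% of all genes did not overlap between conditions in either direction.

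Cebpg had the same direction as Cebpd, and with the gene filter and all 4 libraries edgeR called it in no fit without a block. Its log2 fold change was positive in 16 of 16 fits, from 0.49 to 1.91 with a median of 0.76, and the 2 Fosl2cKO libraries lay above both controls in every one. In 13 fits the unadjusted p was under 0.05, and the lowest edgeR adjusted p was 0.29, in lymphatic endothelial-like cells. DESeq2 called Cebpg in GC-like and GC mitotic-like cells (adjusted p = 0.042 and 0.099), where it called 168 and 183 genes. With no gene filter, edgeR called 4839 of 346824 gene tests over all fits. Cebpg was among them in GC-like (edgeR adjusted p = 0.082), luteal-like (0.071), GC atretic-like (0.023) and GC mitotic-like cells (0.032). Settings with a library left out called more genes over all fits. There Cebpg was also called in lymphatic endothelial-like cells without Fosl2F/F library 1 (log2 fold change 2.23). The same held in NK or T-like cells without Fosl2F/F library 2 (1.99). In GC-like cells the log2 fold change was 0.84 (SE 0.19, adjusted p = 0.64). In NK or T-like cells it was 1.47 (SE 0.54, adjusted p = 0.29), where 0.923% of genes were called. Both Fosl2cKO libraries were above in all 11 classes where Cebpg was tested for 38 of 4772 genes, or 0.796%, and in all 5 GC subclasses for 496 of 10905 genes, or 4.55%. Cebpd and Cebpg were compared with the same 4 libraries in each class, so their directions are not independent.

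Cebpa and Cebpb were called in none of the edgeR fits with the gene filter and all 4 libraries, and with no gene filter Cebpa was called in GC atretic-like cells (log2 fold change 1.40, edgeR adjusted p = 0.086). Cebpa had a positive log2 fold change in 10 of 11 fits, from -0.15 in dendritic-like to 1.38 in GC atretic-like cells. Its conditions did not overlap in 1 of 11, whereas 23.9% to 47.6% of all genes did not overlap by fit. The SE of Cebpa reached 0.80, in dendritic-like cells. Without Fosl2cKO library 2 the Cebpa fold change was negative in theca-like cells (-0.63), GC-like cells (-0.59) and macrophage-like cells (-0.061), and it also turned negative in stromal-like cells and in 4 GC subclasses. Without Fosl2cKO library 1, Cebpa was called higher in stromal-like (log2 fold change 1.31) and GC mitotic-antral-like cells (1.25). That setting called more genes over all fits than the main one. Cebpb had a positive log2 fold change in 12 of 12 fits, up to 1.0 in GC mitotic-antral-like cells. Its conditions did not overlap in 5 of 12 fits, beside the same 23.9% to 47.6% of all genes. In theca-like cells it was 0.90 (SE 0.27, adjusted p = 0.90) and in GC-like cells 0.42 (SE 0.35, adjusted p = 1.0). No member passed the filter in B lymphocyte-like cells, where 0.506% of genes were called. DESeq2 called neither Cebpa nor Cebpb.

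**Figure D4:**
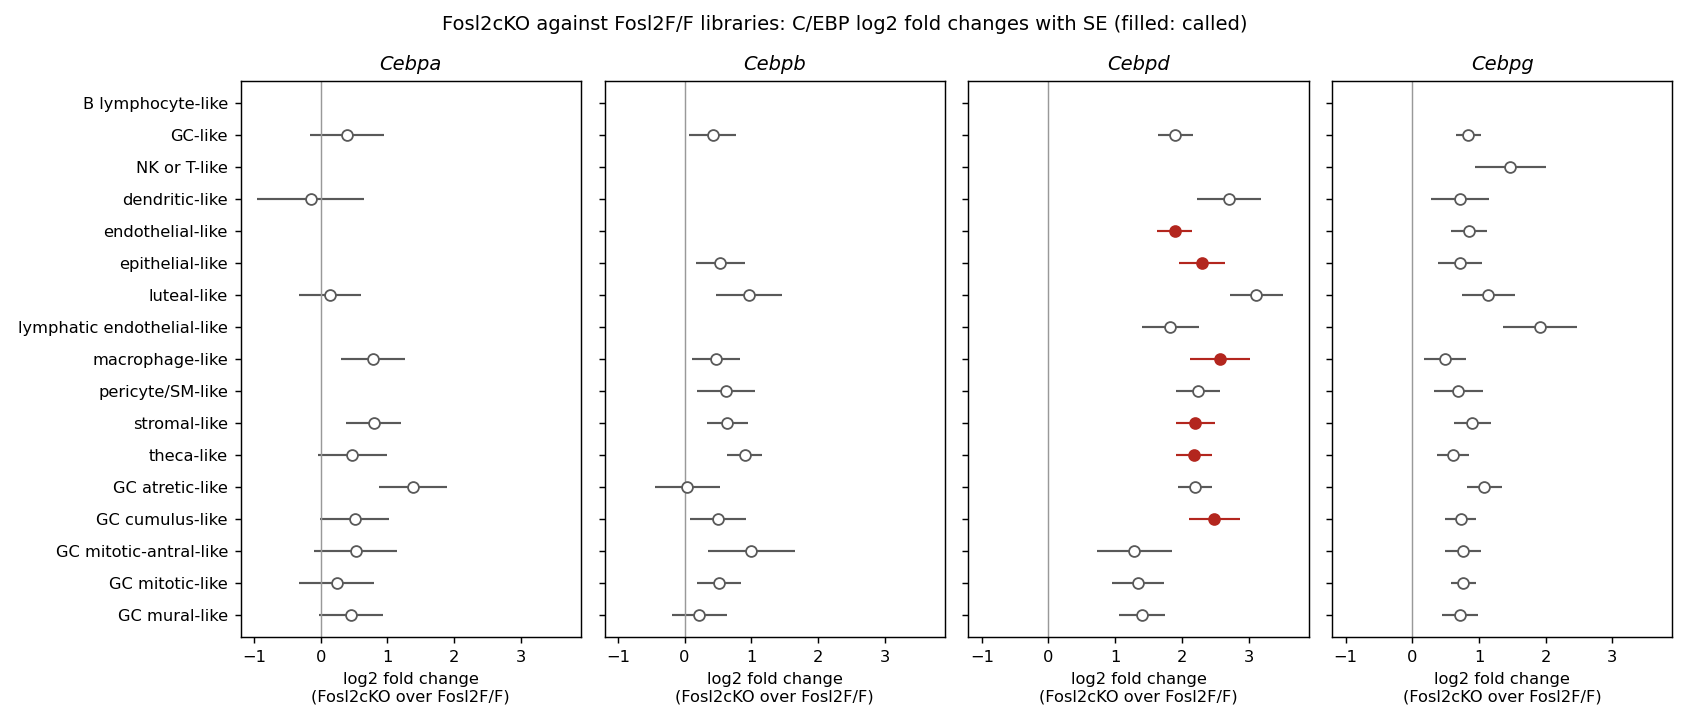
Log2 fold change of each gene, Fosl2cKO over Fosl2F/F, with its standard error as a bar, in the 12 classes and 5 GC subclasses. Filled red points passed the rule (adjusted p under 0.1), open points did not, and a missing point marks a gene that failed the filter on low counts. Cebpd ranged from 1.29 to 3.12 and Cebpg from 0.49 to 1.91, all above 0, whereas Cebpa ran from -0.15 to 1.38 and Cebpb from 0.04 to 1.0.

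The fold changes did not differ detectably between GC-like cells and the other classes. The difference between log2 fold changes was tested with limma for 30 member and class pairs, and 1 had an unadjusted p under 0.05. It was Cebpd in luteal-like cells, where the fold change was larger than in GC-like cells (GC-like minus luteal-like -1.28, limma adjusted p = 0.58). Whether luteal-like cells carried the Fosl2 deletion was not tested, and their mix of clusters differed between libraries. With 2 libraries a group, a miss does not show that the changes were equal.

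Fosl2cKO library 2 was the highest library for Cebpa in 5 of 6 classes with at least 30 Cebpa UMIs and in 5 of 5 GC subclasses. Against the mean of the other 3 libraries Cebpa was there higher by 1.16 on the log2 scale in GC-like, 1.34 in theca-like, 1.15 in stromal-like and 1.41 in macrophage-like cells. Jund, an AP-1 gene of the list of immediate early genes, moved with it, at 217, 233, 322 and 1204 in GC-like cells and 250, 236, 385 and 1383 in stromal-like cells. Both transcripts are rich in G and C, at 62.6% for Cebpa and 67.1% for Jund, as is that of Cebpb at 67.2%. In Fosl2cKO library 2, Cebpb was higher by 0.68 on the log2 scale in GC-like, 0.67 in theca-like, 0.18 in stromal-like and 0.74 in macrophage-like cells. Over 10 equal groups of all genes by G and C content, the median deviation of this library was between -0.08 and 0.07 on the log2 scale. The part of any of this in the Cebpa levels was not tested.

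**Figure D5:**
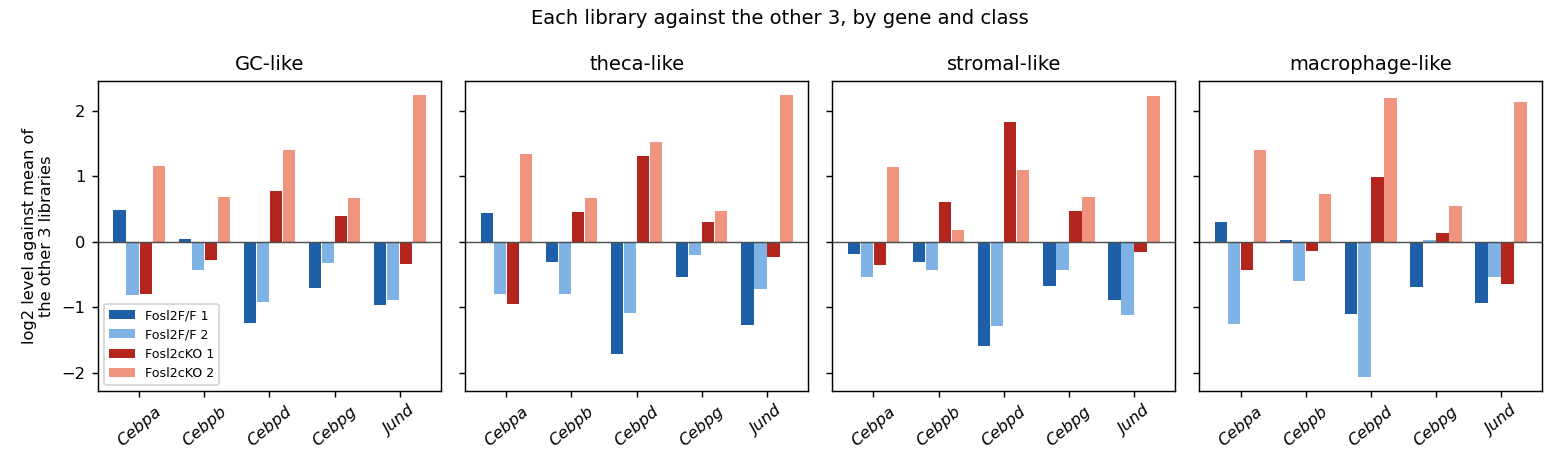
Log2 level of each gene in a library minus the mean of the other 3 libraries, as bars, for 4 classes. Cebpa and Jund stood out in Fosl2cKO library 2, at 1.16 and 2.24 in GC-like cells, whereas Cebpd was above 0 in both Fosl2cKO libraries and below 0 in both Fosl2F/F libraries.

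Values that could move with Cebpd were looked at beside it. The 16 immediate early and heat shock genes, which rise during dissociation, had a summed level of 14925, 16509, 19516 and 13481 in stromal-like cells, beside Cebpd at 74.2, 91.8, 464 and 331. In GC-like cells the same sum was 9015, 8373, 8295 and 9080. Stromal marker genes in GC-like cells were at 0.654%, 1.55%, 0.688% and 0.964% of their stromal-like level, whereas Cebpd in GC-like cells was at 4.61%, 4.79%, 2.70% and 5.17% of its own. Free stromal RNA at the level of those markers would give 0.485, 1.42, 3.19 and 3.19 CPM of Cebpd in GC-like cells, against the 3.42, 4.40, 12.5 and 17.1 measured. In theca-like cells the stromal markers were higher, at 16.0%, 14.9%, 7.59% and 24.0% of their stromal-like level. The same calculation gave 11.9, 13.7, 35.2 and 79.6 CPM of Cebpd there, against the 15.0, 21.5, 79.1 and 90.3 measured. In macrophage-like cells it gave 0.815, 2.15, 6.07 and 4.98 CPM against 8.79, 5.6, 29.9 and 59.8, and in endothelial-like cells 2.35, 3.29, 17.4 and 9.60 against 27.5, 36.1, 117 and 126. The part of dissociation and of stromal RNA in the Cebpd differences was not tested.

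Other genes of the pathway, taken from lists written with earlier results of these data known, showed few calls. Over all genes and fits, 201 of 190324 tests were called (0.106%), 143 higher and 58 lower, and 5.82% had an unadjusted p under 0.05. Among 14 regulators and zipper partners of C/EBP, 199 gene and fit pairs were tested, 3 were higher and 0 lower in the Fosl2cKO libraries, and all 3 were Dbp, with 28 of the 199 at an unadjusted p under 0.05. Dbp encodes a clock-controlled zipper factor and was at 10.6, 9.30, 41.9 and 31.0 in stromal-like cells (log2 fold change 1.81, SE 0.29, edgeR adjusted p = 0.035). It was also called in epithelial-like (2.12, adjusted p = 0.057) and theca-like cells (2.06, adjusted p = 0.083). In GC-like cells Dbp was at 4.91, 7.88, 14.2 and 13.2 and was not called. Other regulators that were not called in GC-like cells were Gsk3b (265, 304, 381 and 322), the kinase that phosphorylates C/EBP proteins, Trib2 (240, 116, 153 and 173), a pseudokinase that targets Cebpa for degradation, and Atf4 (166, 127, 119 and 130), the stress-responsive partner of Cebpg.

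Among 18 genes of signals upstream of C/EBP, 0 of 243 pairs were called. An unadjusted p was under 0.05 for 26 pairs (10.7%, against 5.82% over all genes and fits). Stat3, which relays IL-6 family signals, was at 524, 792, 931 and 540 in stromal-like cells, and Osmr at 79.8, 117, 186 and 96.1, and both overlapped between conditions. Among 15 amino-acid stress genes linked to Atf4 and Cebpg, 0 of 198 pairs were called and 19 (9.60%) had an unadjusted p under 0.05. Slc3a2, an amino-acid transporter subunit gene, was at 237, 164, 152 and 195 in GC-like cells. Pparg, a partner of Cebpa in adipocyte differentiation, was at 171, 98.5, 57.7 and 165 in GC-like cells, and the chemokine gene Cxcl1 at 236, 319, 384 and 249. Adipocyte genes (0 of 74 pairs called) and myeloid and inflammatory genes (0 of 112 called) gave no call by edgeR either. The unadjusted p was under 0.05 for 6 (8.11%) and 12 (10.7%) of these pairs.

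Of 14 ovarian genes linked to C/EBP, 5 of 161 pairs were called (3.11%) and 50 had an unadjusted p under 0.05 (31.1%). Over all genes and fits these shares were 0.106% and 5.82%. All 5 calls were lower in the Fosl2cKO libraries, and 4 of these were Inha and 1 was Cyp11a1, the cholesterol side-chain cleavage enzyme gene. Inha encodes the inhibin alpha subunit of GCs, and the calls were in non-GC classes. The share of kept cells named GC-like was 56.2%, 33.5%, 32.5% and 33.8%, and the part of free GC RNA in these Inha levels was not tested. In endothelial-like cells it was at 291, 171, 79.9 and 69.6 (log2 fold change -1.62, adjusted p = 0.065), and it was also lower in macrophage-like (-1.82, adjusted p = 0.072), B lymphocyte-like (-2.22, adjusted p = 7.85e-05) and NK or T-like cells (-1.52, adjusted p = 0.027). In GC-like cells Inha was at 7311, 4592, 4049 and 3923 (log2 fold change -0.62, adjusted p = 1.0). The aromatase gene Cyp19a1 was there at 219, 57.7, 33.5 and 43.8 (-1.89, SE 0.59, adjusted p = 0.97), with Fosl2F/F library 1 far above the others. Among the immediate early and heat shock genes, 3 of 268 pairs were called (1.12%) and 45 had an unadjusted p under 0.05 (16.8%). The 3 calls were all Jund, in B lymphocyte-like, lymphatic endothelial-like and NK or T-like cells. The other C/EBP genes Cebpz and Ddit3 were called in no fit, and Cebpe failed the filter in all 17. Cebpz was at 52.7, 65.5, 58.1 and 60.1 and Ddit3 at 26.7, 32.0, 33.8 and 26.3 in GC-like cells, and both overlapped between conditions.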

How the data were processed

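Single-cell suspensions of ovaries, in 4 libraries, were sequenced by the authors with a 3′ droplet kit and counted with Cell Ranger on GRCm38. The deposited values were raw UMI counts per gene and cell barcode, and the matrix headers name a later Cell Ranger version than the study's methods, one that counts introns by default. Whether background removal with CellBender was applied to the deposited counts, and whether counting used strand, was not given in the sources used here. The authors' cell annotation was not used here.

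A barcode was kept if it had 500 genes or more and more than 1000 UMIs. Mitochondrial transcripts had to make up less than 10% and hemoglobin transcripts less than 0.1% of these UMIs. Cells with the highest Scrublet scores (scanpy 1.11.5) were removed as predicted doublets, up to a fixed share of 0.8% per 1000 cells. Libraries were log-normalized and integrated by reciprocal PCA in Seurat 5.3.0 (R 4.3.3, 3000 features without the C/EBP genes, 30 dimensions, resolution 0.8, and 0.5 within GC-like cells), in place of the authors' SCTransform. Clusters were named from marker lists. UMIs were summed per class and library and tested with edgeR 4.0.16 (quasi-likelihood, Benjamini-Hochberg adjustment over all genes of a fit), differences between classes with limma 3.58.1, and DESeq2 1.42.0 was an alternative. On simulated counts for GC-like cells (16986 genes) the edgeR step recovered 29% of genes changed 2-fold and 77% of those changed 4-fold, with 11.7% false calls. Alternatives were other normalization, no gene filter, a replicate block, each library left out, a stricter threshold, doublets kept, over 2000 UMIs per cell, no integration, other resolutions and other thinning.

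The members and the gene lists were chosen with earlier results of these data known. The text names the 4 members in every class, up to 4 genes of a list (called genes by size of fold change, then those highest in GC-like cells) and the genes most alike each member, by Pearson's r of log2(CPM + 1) among genes with at least 20 CPM in a class. Levels of Osmr and Stat3 in stromal-like cells, and Jund, were added after their values were seen. The labels name no separate animals or batches, so p-values measure only the spread between these libraries, which may be technical.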

Additional observations from a re-analysis of the deposited data

How the results depend on the processing

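The direction of Cebpd and Cebpg held under every setting that could be fitted. Cebpd kept its sign in 60 of 60 fits with a library left out and 138 of 138 other fits. Cebpg kept its sign in 64 of 64 and 148 of 148. For both genes, both Fosl2cKO libraries already lay above both Fosl2F/F libraries in every main fit. Leaving a library out could therefore hardly change their sign, and those counts show nothing further. Cebpa changed sign in 13 of 44 and 3 of 98 fits, and Cebpb in 4 of 48 and 2 of 108. The 6 member and class pairs called became 12 with DESeq2, 19 with no gene filter and 4 to 12 with a library left out, and the 201 genes called over all fits became 1351 with DESeq2, 4839 with no gene filter, 102 at an adjusted p under 0.05 and 422 to 2166 with a library left out. Replicate numbers did not pair the libraries (r between -0.28 and 0.12 over 17 fits, 11 under -0.1), and a replicate block gave 4 pairs and 505 genes, losing Cebpd in endothelial-like and GC cumulus-like cells. A crossed pairing as replicate block, chosen after seeing the data, gave 13 pairs and 2262 genes. Cebpg was among these pairs in stromal-like, GC mitotic-antral-like and GC mitotic-like cells. With a library left out, the Cebpa log2 fold change ranged from -1.30 to 1.93 in dendritic-like, -0.59 to 1.06 in GC-like, -0.078 to 0.36 in luteal-like, -0.061 to 1.47 in macrophage-like, -0.014 to 1.31 in stromal-like and -0.63 to 1.10 in theca-like cells. In GC subclasses it ranged from -0.37 to 1.09 in cumulus-like, -1.0 to 1.25 in mitotic-antral-like, -0.78 to 1.04 in mitotic-like and -0.56 to 1.06 in mural-like cells. Cebpb ranged from -0.064 to 0.78 in GC-like, -0.30 to 0.72 in GC atretic-like and -0.35 to 0.65 in GC mural-like cells. Over all settings, Cebpa ranged from 0.59 to 1.87 in GC atretic-like cells and Cebpb from 0.14 to 2.32 in GC mitotic-antral-like cells. Cebpd ranged from 0.58 to 2.16 in GC mitotic-antral-like and from 0.75 to 1.78 in GC mitotic-like cells. Cebpa in dendritic-like cells was 0.23 with doublets kept, 0.11 with no integration and 0.045 with the crossed replicate block, and Cebpb in GC mural-like cells was -0.12 with doublets kept and -0.25 with no integration. The cause of these changes was not tested. GC subclasses were not rebuilt at the other resolutions.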

Other observations

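Dbp was called in the same direction as Cebpd in 3 classes, and 14 clock genes, Dbp among them, were looked at after its values were seen. Of the 14, 5 were higher and 1 lower in both Fosl2cKO libraries than in both Fosl2F/F libraries in stromal-like cells, where 30.7% of all genes tested did not overlap in either direction. The counts were 6 and 0 in macrophage-like cells (33.6% of all genes), 4 and 0 in epithelial-like (23.9%), 3 and 2 in theca-like (26.6%), 2 and 2 in endothelial-like (28.6%) and 2 and 0 in GC-like cells (31.7%). Tef, a zipper factor related to Dbp, was at 28.9, 30.3, 51.6 and 41.4 CPM in stromal-like cells and the period gene Per3 at 23.3, 20.3, 37.9 and 30.4. Of 6 glucocorticoid-responsive genes, chosen the same way, 2 were higher and 1 lower in GC-like cells, 1 and 1 in theca-like, 1 and 0 in epithelial-like, 0 and 1 in endothelial-like, and 0 and 0 in stromal-like and macrophage-like cells. Nothing particular to either set is read from these counts.

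Cebpd levels in the 2 clusters left unnamed among all cells are given as values, with no test between conditions. In both, the best marker score led the next by less than the 0.1 asked for. In 807 cells led by Myh11, Tagln and Acta2, smooth muscle genes, it was at 29.9 and 59.5 CPM in the Fosl2F/F and 242 and 176 in the Fosl2cKO libraries. In 1008 cells led by Enpep and Hhip, with the proliferation gene Mki67 among the top genes, it was at 44.4 and 51.3 against 298 and 197.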
